A study of Homo sapiens with 3 samples.

Results

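VCaP is a prostate cancer cell line that carries the androgen receptor, and enzalutamide (ENZ) is a drug that blocks this receptor. CCN3, also known as NOV, encodes a secreted matricellular protein of the CCN family, which binds integrins at the cell surface and is known as a gene that androgen holds down in prostate cells. Matricellular proteins sit in the extracellular matrix and act on cells as signals more than as scaffold. Immediate early genes, which recur below, encode transcription factors and RNA-binding proteins and are induced within minutes of a stimulus, without new protein synthesis, whereas the S and G2M phase genes are made by cells that copy their DNA or divide.

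The cells described here came from VCaP–ENZ48, VCaP cells held for 48 h in 10 µM ENZ, and were split by their own CCN3 level into CCN3-high and CCN3-low cells. Of 1000 cell barcodes, 816 had at least 4000 unique molecular identifiers (UMIs, each standing for 1 captured mRNA molecule), at least 300 genes and at most 25% mitochondrial UMIs. These 816 cells were ranked by CCN3 UMIs over all UMIs. The top 20% were called CCN3-high (163 cells), the bottom 40% CCN3-low (326 cells) and the rest middle (327 cells), so that 489 of the 3000 barcodes in the series were compared. Because the groups were selected on CCN3, its levels only describe the split and are no finding.

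The series held 1 library each of VCaP–ENZ48, VCaP parental and LNCaP–ENZ168, all prepared by Drop-seq, which captures single cells in droplets with barcoded beads. VCaP parental had been kept for 48 h in the vehicle, 0.1% DMSO, and LNCaP–ENZ168, another prostate cancer line, for 168 h in 10 µM ENZ. Each group had 1 library, and cells of 1 library are not replicates of a condition. No statistical test was therefore made and no p-value is given. Levels are UMIs summed over the cells of a group and scaled to a common total of 1000000 (CPM), with exact 95% Poisson intervals. Ratios are log2((CPM + 1)/(CPM + 1)) of CCN3-high over CCN3-low cells, with exact 95% conditional intervals. These intervals cover counting error only. Intervals on shares of cells (Clopper-Pearson) treat the cells of 1 library as independent draws. Neither kind covers differences between cultures. The 2 VCaP libraries shared 1 barcode among all barcodes and 0 among the cells kept.

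The split ran through a continuous range of CCN3 levels. The last cell inside the CCN3-high group had a CCN3 share of 556 CPM within its own UMIs, and the first cell outside it had 555.3 CPM. The last cell inside the CCN3-low group had 149.6 CPM, and the first outside it had 150.3 CPM. CCN3 was at 980.7 CPM (2329 UMIs) in CCN3-high, 310.5 CPM (1900 UMIs) in middle and 60.4 CPM (329 UMIs) in CCN3-low cells. CCN3-high cells thus held 51.1% of the CCN3 UMIs of the kept cells, and 163 of the CCN3-low cells had 0. The richest cell carried 78 CCN3 UMIs.

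**Figure D1:**
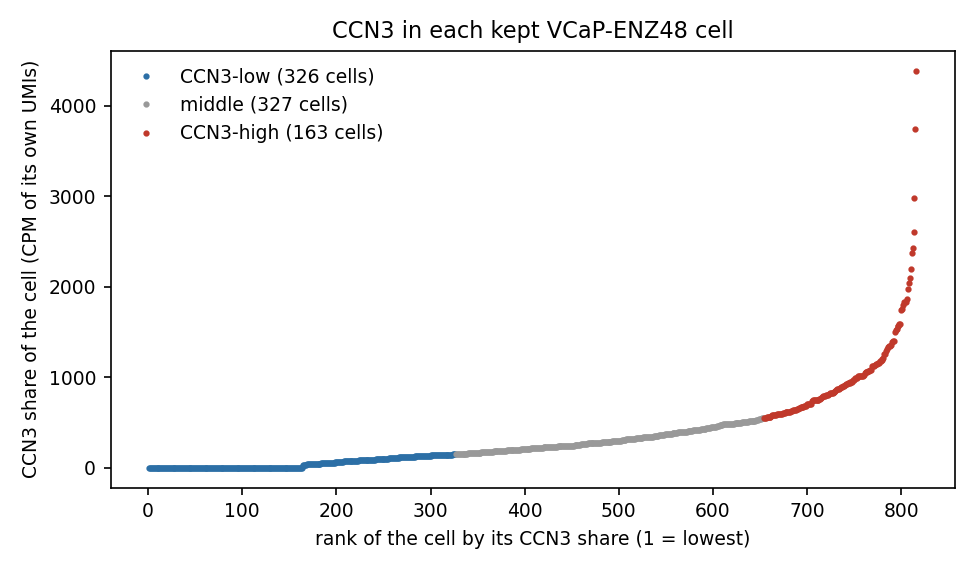
CCN3 share, as CPM within the cell, of each of the 816 kept VCaP–ENZ48 cells (vertical axis) by the rank of the cell (horizontal axis), coloured by group. Levels climb without a gap across both borders of the split, and the 163 cells at 0 make up the left of the CCN3-low group.

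The 3 groups differed in depth. The median cell had 11290 UMIs in CCN3-high, 14766 in middle and 12727.5 in CCN3-low cells. Within the CCN3-low group the 163 cells at 0 CCN3 UMIs had a median of 8996, and the 163 cells ranked above them 17624. Mitochondrial transcripts made up 7.74% and 7.2% of UMIs in CCN3-high and CCN3-low cells, and ribosomal protein genes 22.1% and 25.4%. The parts that depth and these shares play in the ratios below were not tested. CCN3 was seen in 80% of kept VCaP–ENZ48 cells, against 32.6% in VCaP parental and 10.9% in LNCaP–ENZ168, whose median cells had 13274, 17817 and 6203 UMIs. After each cell had been thinned to 4000 UMIs the shares were 58.1%, 8.83% and 7.27%, and the level over all kept cells was 326.9, 28.4 and 21.3 CPM.

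The prostate label held in both groups. The 8 listed markers of VCaP and of prostate epithelium summed to 5241 CPM in CCN3-high and 4113 CPM in CCN3-low cells, and all 8 were detected in each. Leukocyte markers summed to 2.95 and 1.65 CPM (7 and 9 UMIs), and 0 of 6 endothelial markers were in the file. Fibroblast markers summed to 29.9 and 25.3 CPM, of which LUM, a matrix proteoglycan, made up 27.8 and 23.7 CPM. Genes high in LNCaP summed to 53.1 CPM in CCN3-high, 12.1 CPM in CCN3-low and 4489 CPM in LNCaP–ENZ168 cells, mostly MME, a membrane peptidase, at 48.4 against 9.36 CPM.

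Among 5451 genes of at least 20 CPM other than CCN3, 207 were past 1.5-fold higher in CCN3-high cells (3.8% of genes tested) and 113 past 1.5-fold lower (2.07%). The median gene was at 0.05 on the log2 scale. The balance of these calls turned with the scaling. Higher genes made up 64.7% of the calls with plain totals and 32.9% with TMM factors (104 higher and 212 lower), which moved the median gene by -0.11. Named below are the 15 largest ratios each way among genes of at least 50 CPM, and each of them was past 1.5-fold in its direction under all 3 other scalings. REG4 had the largest ratio among the higher genes of at least 50 CPM but rested on very few cells, so it is described last among the higher genes.

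**Figure D2:**
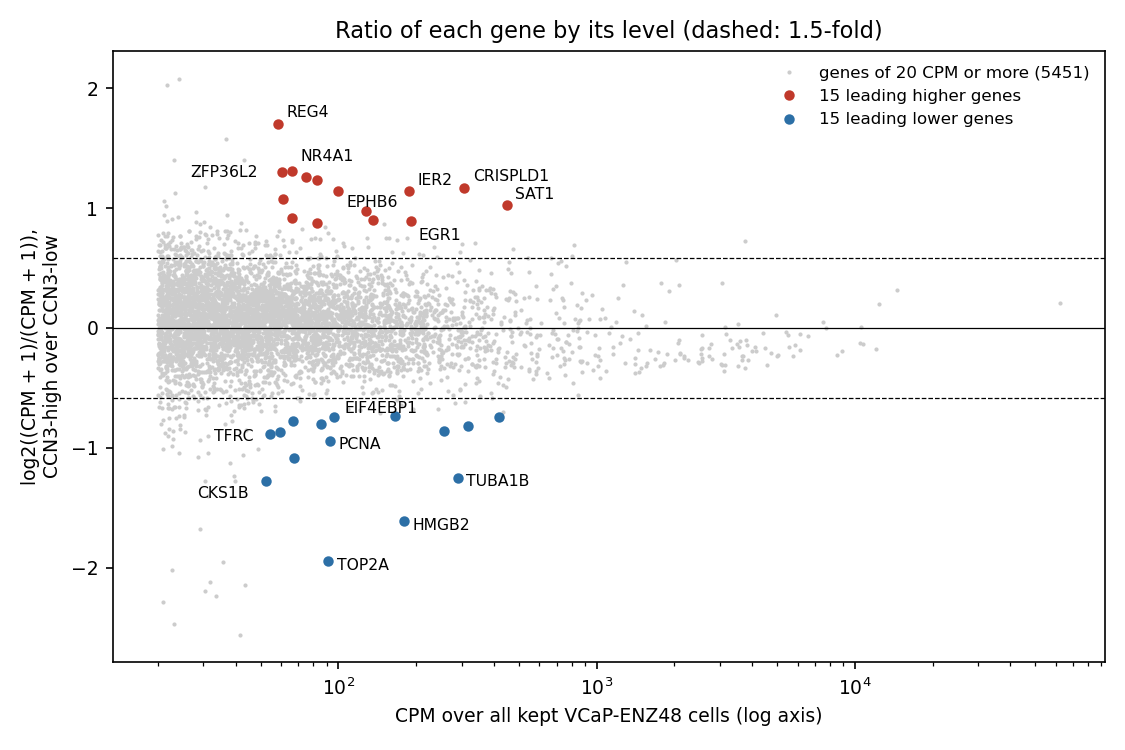
The log2 ratio of each of 5451 genes (vertical axis) by its CPM over all kept VCaP–ENZ48 cells (horizontal log axis), with 1.5-fold marked by dashed lines. The 15 leading higher genes (red) lie between 0.88 and 1.70 and the 15 leading lower genes (blue) between -0.74 and -1.95.

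Immediate early genes had the highest median of the lists with more than 1 member tested. Of 14 listed members tested, 9 were past 1.5-fold higher and 0 lower, beside 3.8% and 2.07% of all genes. Their median was 0.80 against 0.05 for all genes. NR4A1, an orphan nuclear receptor induced by many stimuli, was at 112 CPM (99.0 to 126.3) in CCN3-high, 67 CPM in middle and 44.6 CPM (39.2 to 50.6) in CCN3-low cells, a log2 ratio of 1.31 (1.07 to 1.59). ZFP36, which binds AU-rich elements and speeds the decay of mRNAs, was at 131.8, 88.4 and 55.4 CPM in the same order. IER2, a nuclear protein of the early response, was at 310.3, 181.4 and 140.4 CPM. EGR1, a zinc finger transcription factor, was at 269.5, 200.05 and 144.8 CPM. In all 4 genes the middle cells lay between the other groups. The intervals of CCN3-high and CCN3-low cells did not overlap, as in all 15 leading higher genes. These genes were chosen for their large ratios, so that adds no separate support.

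The AP-1 subunits, which pair to form a transcription factor, followed with unequal ratios. JUNB was at 81.7 against 30.3 CPM, a log2 ratio of 1.40, and FOSB at 120.8 against 69.6 CPM, a ratio of 0.79. FOS, the most abundant of the list, was at 1110 against 688.8 CPM, a ratio of 0.69 (0.62 to 0.76). JUN reached 350.3 against 253.1 CPM, a ratio of 0.47, which is within 1.5-fold. The other called members were MCL1, an inhibitor of apoptosis at 52.2 against 29.4 CPM, and CCN1, treated below. MYC was at 492.7 against 458.5 CPM, a ratio of 0.10. ZFP36L2, which is a relative of ZFP36 and no member of the list, was at 100.2 against 40.2 CPM, a ratio of 1.30.

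**Figure D3:**
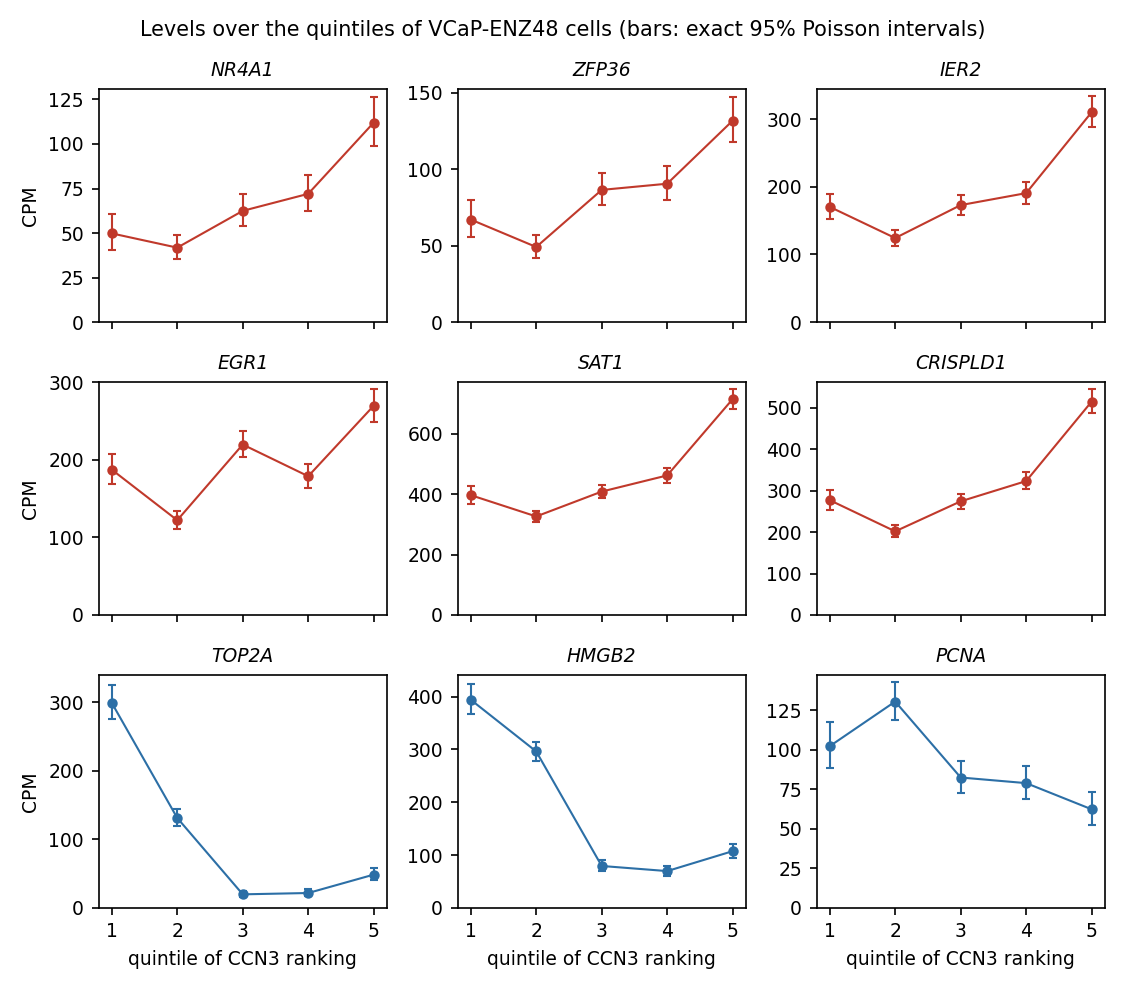
CPM of 9 named genes (vertical axes, from 0) in the 5 quintiles of VCaP–ENZ48 cells ranked by CCN3 (horizontal axis, quintile 5 being CCN3-high, quintiles 1 and 2 CCN3-low), with exact 95% Poisson intervals. The 6 higher genes (red) are at their lowest in quintile 2 and at their highest in quintile 5, whereas TOP2A and HMGB2 (blue) are at their highest in quintile 1.

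The levels did not climb step by step along the whole ranking. None of the 15 leading higher genes (0 of 15) was higher in each quintile of cells than in the one before. For NR4A1 the quintiles were at 49.8, 41.8, 62.4, 72 and 112 CPM from the cells without CCN3 upward, and EGR1 was at 187.2 CPM in quintile 1, 219.5 CPM in quintile 3, 178.7 CPM in quintile 4 and 269.5 CPM in quintile 5. Both were lower in quintile 2 than in the cells with 0 CCN3 UMIs, which were the shallower of the pair. Against the cells without CCN3 alone, EGR1 had a ratio of 0.52.

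The other leading higher genes had varied roles. SAT1, which acetylates spermidine and spermine and so drives polyamine breakdown, was at 714.2 CPM (680.6 to 749) in CCN3-high, 433.6 CPM in middle and 350.6 CPM (335 to 366.6) in CCN3-low cells, a ratio of 1.02 (0.93 to 1.12). CRISPLD1, a secreted CAP-domain protein that lies on chromosome 8 as CCN3 does, was at 515.4, 297.8 and 228.3 CPM, a ratio of 1.17. EPHB6, an Eph receptor without kinase activity, was at 165.9, 96.3 and 74.5 CPM. SESN3, a sestrin that acts against oxidative stress and mTORC1, was at 128.4, 76.2 and 69.4 CPM, and CSRP2, a LIM-domain protein, at 197.1, 141.2 and 105.4 CPM. TRGC1, a T cell receptor gamma constant gene whose transcript is known from prostate epithelium, was at 193.7 against 98 CPM.

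LRATD1, FAM135A and RWDD2A completed the set, with ratios of 1.26, 1.07 and 0.92. In 14 of the 15 genes the middle cells lay between CCN3-low and CCN3-high cells. Equal weighting of cells left all 15 past 1.5-fold. In cells thinned to 4000 UMIs 14 remained so, the exception being CSRP2 at 0.33, and 12 when the thinned cells were also ranked anew.

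REG4, a secreted lectin of the gastrointestinal tract, was at 169.7 CPM in CCN3-high, 21.6 CPM in middle and 51.4 CPM in CCN3-low cells. Its 5 richest cells held 72.9% of its 815 UMIs in the kept cells. One CCN3-high cell carried 273 REG4 UMIs and one CCN3-low cell 199. Only 19, 44 and 26 cells of the CCN3-high, middle and CCN3-low groups had any. Its ratio of 1.70 turned to -1.09 when the top 10% of cells were compared and to -0.85 in cells of 8000 to 20000 UMIs, so it gives no direction for the groups.

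CCN1 is the only other member of the CCN family that was abundant enough to test in these cells. It encodes a matricellular protein that is both an immediate early gene and a target of YAP and TEAD. It was at 56 CPM (46.9 to 66.4, 133 UMIs) in CCN3-high, 21.9 CPM in middle and 12.5 CPM (9.69 to 15.8, 68 UMIs) in CCN3-low cells, a ratio of 2.08 (1.73 to 2.61). Unlike the 15 leading genes it was higher in each quintile than in the one before, at 8.39, 14.7, 16.2, 28.1 and 56 CPM. Its 5 richest cells held 19.1% of its UMIs. In VCaP parental it stood at 29.4 and 29.2 CPM in the corresponding groups. CCN2 had 3 UMIs in CCN3-high and 1 in CCN3-low cells, and CCN5 had 0 and 1, too few to compare. The 4 other YAP-TEAD targets tested lay between 0.18 and 0.40.

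The receptors that CCN3 is known to bind were low and close between the groups. Of 11 listed integrins and other receptors found, 3 were abundant enough to test and 0 of these were past 1.5-fold. With 3.8% of all genes called higher and 2.07% lower, so few members would seldom hold a call. ITGB1 was at 87.6 against 78.9 CPM, ITGA6 at 43.4 against 34 CPM and ITGAV at 25.7 against 20.4 CPM. ITGA5 had 0 and 3 UMIs. In the Notch pathway, with which CCN3 is known to interact, 0 of 6 members tested were called and the median was 0.15. NOTCH1 itself had 3 and 2 UMIs.

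Secreted and epithelial gene groups lay mostly above the median of all genes. Their counts of calls stand beside 3.8% higher and 2.07% lower over all genes. In the extracellular matrix list 3 of 7 members were past 1.5-fold higher, namely THBS1 (72.8 against 44.8 CPM), FBLN2 (269.1 against 175.1 CPM) and FSTL1 (155 against 103 CPM), and 0 were lower. Among 10 BMP and TGF-beta feedback and ID genes 2 were higher, ID1 and TGIF1, and 0 lower. ID1, an inhibitor of basic helix-loop-helix factors, was at 666.6 CPM in CCN3-high, 449.1 CPM in middle and 421.8 CPM in CCN3-low cells, a ratio of 0.66 (0.57 to 0.75). ID2 had a ratio of 0.38 and ID3 one of 0.06.

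The luminal list had 1 of 16 members called, CLDN4, a tight junction protein at 307.4 against 192.2 CPM. A single call cannot be set apart from the 3.8% of all genes called higher. All 16 lay above the median of all genes, between 0.11 and 0.67. In the gastrointestinal list 2 of 7 were called, REG4 and the trefoil factor TFF1 (29.9 against 17.3 CPM). REG4 gives no direction, as described above, which leaves TFF1 as the only other call. TSPAN8 and AGR2 lay just within 1.5-fold at 0.58 each. TSPAN8, a tetraspanin, was at 837.1 against 559.2 CPM.

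Of 28 androgen-induced genes tested 1 was called, a share near the 3.8% of all genes, namely TRPM8, a cold-sensing channel at 115 against 68.3 CPM, and the median of 0.11 became -0.00087 with TMM scaling. KLK2, a kallikrein of the prostate, was at 3478 against 2680 CPM, a ratio of 0.38, and FKBP5 at 21.9 against 24.8 CPM. The androgen-repressed genes DDC, FOLH1 and OPRK1, which share with CCN3 that androgen is known to lower them, had ratios of 0.47, 0.54 and 0.51, whereas CAMK2N1, the other member tested, had -0.10, and 0 of 4 were called. The median of this list, 0.49, was -0.057 in barcodes ending in a base. ACPP, prostatic acid phosphatase, was chosen after its values were seen. At 5001 against 3032 CPM, a ratio of 0.72, it was the called gene with the highest level.

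PROSGenesis is a signature that the study took from published regenerative luminal cells of mouse prostate, by their human homologs. In it 5 of 40 members were called higher and 0 lower, with a median of 0.25. Its largest ratio was 0.96 for ANXA3, an annexin at 37.5 against 18.7 CPM. Among ENZ-induced cluster markers 9 of 133 were higher and 2 lower, and among initial cluster markers 4 of 121 were higher and 1 lower, beside 3.8% higher and 2.07% lower over all genes. In Persist 5 of 9 were lower and 0 higher, and these 5, MKI67, CENPF, CENPE, CCNB1 and TUBA1C, are genes of dividing cells or tubulin.

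**Figure D4:**
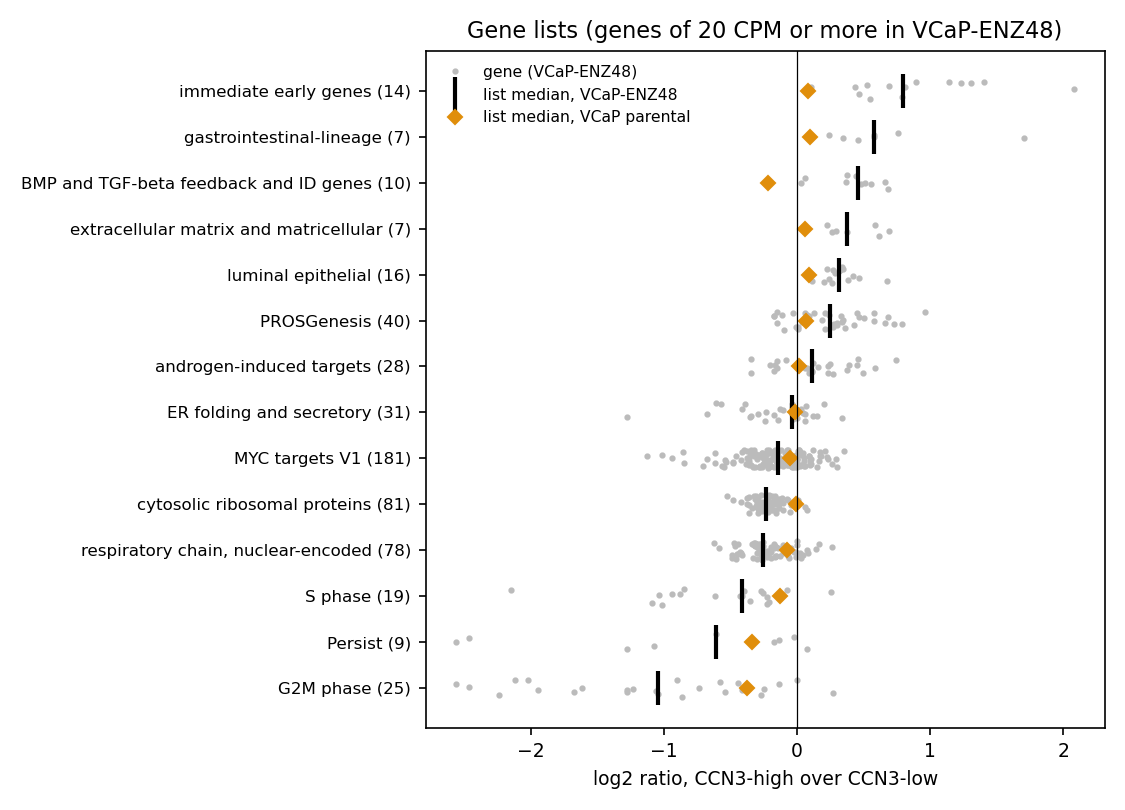
Log2 ratios of the members of 14 gene lists in VCaP–ENZ48 (grey points, horizontal axis), with the list median there (black bar) and in VCaP parental (orange diamond), and the number of members tested in brackets. Immediate early genes have the highest median of the lists drawn, 0.80, and G2M phase genes the lowest, -1.05.

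Genes of DNA replication and mitosis led the lower side, on which 2.07% of all genes were called. Of 25 G2M phase genes tested 16 were past 1.5-fold lower in CCN3-high cells and 0 higher, with a median of -1.05, and of 19 S phase genes 8 were lower and 0 higher, with a median of -0.41. TOP2A, the topoisomerase that untangles DNA before mitosis, was at 48.4 CPM (40 to 58.1) in CCN3-high, 20.6 CPM in middle and 189.8 CPM (178.4 to 201.7) in CCN3-low cells, a ratio of -1.95 (-2.26 to -1.69). HMGB2, a chromatin protein, was at 107.4, 74.7 and 330.6 CPM. CKS1B, which binds cyclin-dependent kinases, was at 29.5, 43 and 72.9 CPM, and PCNA, the sliding clamp of DNA polymerase, at 62.3, 80.7 and 120.6 CPM.

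The order of the 3 groups differed from that of the higher genes. For TOP2A and HMGB2 the middle cells were the lowest, and the excess lay in the CCN3-low cells. Of the 15 leading lower genes 10 had the middle cells between the others. The remaining members were TUBA1B, a tubulin (186.5 against 446.2 CPM), ATAD2, TMPO, the histones H2AZ1 and H4C3, and SMC4, a condensin subunit. TFRC, the transferrin receptor that imports iron, was at 34.9 against 65.5 CPM, and EIF4EBP1, a repressor of cap-dependent translation, at 65.3 against 109.9 CPM. TOMM5, a part of the mitochondrial import channel, LRRC75A and RPS2P5 completed the set. RPS2P5 is a pseudogene whose reads may be shared with its parent gene, so its ratio is uncertain. Equal weighting of cells left 11 of the 15 leading lower genes past 1.5-fold. In cells thinned to 4000 UMIs 13 remained so, and 10 when the thinned cells were also ranked anew. PCNA moved from -0.94 to -0.40, -0.18 and 0 in this order, and ATAD2 from -1.09 to -0.52, -0.63 and -0.29.

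Cells with the most S and G2M phase transcripts lay more often in the CCN3-low group. After thinning to 4000 UMIs, the median cell had 1750 CPM of S and G2M phase transcripts in CCN3-high and 1875 CPM in CCN3-low cells. Above 5688 CPM, the highest 5% of kept VCaP–ENZ48 cells, lay 2 of 163 CCN3-high cells (1.23%, Clopper-Pearson 0.149 to 4.36%), 8 of 327 middle cells (2.45%, 1.06 to 4.76%) and 31 of 326 CCN3-low cells (9.51%, 6.55 to 13.2%). This border was chosen after the data were seen. Summed over all cells of a group, the phase genes were at 2158 CPM in CCN3-high and 4064 CPM in CCN3-low cells. Without the cells above the border they were at 1894 and 1918 CPM. Those cells were chosen by the same genes, so this near match follows in part from the choice. The 5 richest cells held 51.5% of the TOP2A UMIs of the kept cells and 30.7% of those of HMGB2.

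When only the cells at or below the median in these phase genes were ranked anew, TOP2A and HMGB2 had ratios of 0.38 and 0.56, CKS1B, ATAD2 and H4C3 also turned positive, and the G2M phase median became 0.092. That choice removes the cells richest in the genes themselves. Of all calls, 84 of the 207 higher genes and 17 of the 113 lower genes were called again in these cells. Over all 5321 genes tested there, 150 were called higher (2.82%) and 75 lower (1.41%). These cells are part of those that chose the genes, so some repeat of the calls was built in. Of the 15 leading higher genes, REG4 included, 14 were past 1.5-fold, and the exception was SESN3 at 0.19. The immediate early median was 0.67 there. NR4A1, ZFP36 and EGR1 were at 1.22, 1.30 and 0.78.

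Promoters are shown for a pair of genes from each side, since immediate early and proliferation genes differ in the control elements they are known for. The sequences run 5′ to 3′ from 250 bases before to 50 after the start of the gene and are from RefSeq on GRCh38.p14. In EGR1 (chr5:138465229-138465528, plus strand) and IER2 (chr19:13150161-13150460, plus strand) capitals mark CGTCA, the core of the cyclic AMP response element, on either strand.
EGR1: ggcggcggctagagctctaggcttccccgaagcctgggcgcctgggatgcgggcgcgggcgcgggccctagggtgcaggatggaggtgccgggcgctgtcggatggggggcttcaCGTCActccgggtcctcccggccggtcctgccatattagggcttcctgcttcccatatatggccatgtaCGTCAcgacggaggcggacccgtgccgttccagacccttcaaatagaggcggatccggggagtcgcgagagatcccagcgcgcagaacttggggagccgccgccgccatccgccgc
IER2: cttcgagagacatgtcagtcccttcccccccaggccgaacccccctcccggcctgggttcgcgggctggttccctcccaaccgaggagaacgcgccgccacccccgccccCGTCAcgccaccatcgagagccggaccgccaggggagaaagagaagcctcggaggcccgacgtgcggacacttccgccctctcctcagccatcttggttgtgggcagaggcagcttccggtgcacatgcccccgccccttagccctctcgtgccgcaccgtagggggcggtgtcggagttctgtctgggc
In TOP2A (chr17:40417847-40418146, minus strand) and CKS1B (chr1:154974431-154974730, plus strand) capitals mark CCAAT, bound by NF-Y, and TTTGAA, the cell cycle homology region element, on either strand.
TOP2A: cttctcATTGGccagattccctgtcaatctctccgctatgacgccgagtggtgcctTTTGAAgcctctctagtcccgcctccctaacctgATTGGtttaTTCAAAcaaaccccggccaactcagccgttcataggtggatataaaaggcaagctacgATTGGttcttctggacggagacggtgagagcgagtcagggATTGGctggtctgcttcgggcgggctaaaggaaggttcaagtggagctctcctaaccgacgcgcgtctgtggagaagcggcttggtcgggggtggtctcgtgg
CKS1B: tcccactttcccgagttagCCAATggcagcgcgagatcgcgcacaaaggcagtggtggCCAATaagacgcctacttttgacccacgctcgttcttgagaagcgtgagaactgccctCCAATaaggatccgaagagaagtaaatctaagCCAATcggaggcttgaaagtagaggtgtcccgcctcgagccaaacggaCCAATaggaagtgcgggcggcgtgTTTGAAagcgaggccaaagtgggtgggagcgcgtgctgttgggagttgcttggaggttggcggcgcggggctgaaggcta

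EGR1 held 2 copies of CGTCA, 0 of CCAAT and 1 of TTTGAA, and IER2 1, 0 and 0. In the same order TOP2A held 1, 4 and 2, and CKS1B 0, 5 and 1. Only the motifs named for each pair are in capitals, so the TTTGAA of EGR1 and the CGTCA of TOP2A are unmarked. A promoter was found for 12 of the 15 leading higher and 8 of the 15 leading lower genes. CGTCA was present in 4 of 12 and 3 of 8 of these, and in 28.4% of 27305 genes with a promoter. Over the lists it was present in 8 of 11 immediate early genes with a promoter and in 10 of 19 G2M phase genes. CCAAT was present in 4 of 12 higher, 5 of 8 lower and 39.7% of all genes, and TTTGAA in 3 of 12, 4 of 8 and 18.2%. In G2M phase genes they were present in 13 and 14 of 19. Each motif was counted on its own on both strands, and a match is a description of the sequence only.

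Lists of translation and respiration genes had medians below that of all genes, with few members called. Of 81 cytosolic ribosomal protein genes 0 were past 1.5-fold, but 2 lay above the median of all genes, and the list median was -0.23. Nuclear-encoded respiratory chain genes had a median of -0.26, with 2 of 78 called lower (ATP5MC1 at 197.9 against 306.3 CPM and ATP5ME at 300.2 against 451.9 CPM) and 0 higher, a share near the 2.07% of all genes called lower. MYC targets V1 had a median of -0.14, with 9 of 181 lower and 0 higher. Ribosome biogenesis genes had -0.16, with 3 of 28 lower, both beside the same 2.07% of all genes. DDX21, an RNA helicase of the nucleolus, was at 141.5 against 227.2 CPM. These lists were added after the values had been seen, and their medians ranged below 0 under each of the alternatives run.

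Genes of folding and secretion in the endoplasmic reticulum differed among themselves. Of 31 tested 3 were lower and 0 higher, beside 2.07% lower and 3.8% higher over all genes, and the median was -0.04. The called members were SDF2L1 (23.6 against 58.7 CPM), MANF (85.9 against 138 CPM) and SPCS3. HSPA5, the main chaperone there, was at 677.9 against 889.2 CPM, a ratio of -0.39, and XBP1, a transcription factor of the unfolded protein response, at 121.3 against 95.6 CPM, a ratio of 0.34. The list of metallothioneins, which bind zinc and copper, with a zinc transporter had a median of -0.45 with 0 of 4 called, and the median was 0.05 in the cells at or below the median in cell cycle genes. MT2A was at 243.8 against 360.3 CPM, and its ratio of -0.56 lay just within 1.5-fold.

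The same rule was applied to VCaP parental, a library that the choice of genes did not use. Of its 997 kept cells 199 were CCN3-high and 399 CCN3-low. Here CCN3 was at 116.7 CPM against 0 UMIs, since 672 cells had none and ties went by file order. The median cell had 16439 UMIs in CCN3-high and 15180 in CCN3-low cells. It had 23920 in the middle cells, which took the other cells without CCN3. The median CCN3-high cell held 1 CCN3 UMI there and 12 in VCaP–ENZ48, so the splits were unlike. The part this plays in the size of the ratios was not tested. Among 4773 genes 29 were past 1.5-fold higher (0.608%) and 4 lower (0.0838%), around a median of 0.02. Of the 15 leading higher genes 12 reached 20 CPM there, and 11 of these lay above the median of all genes. Their median ratio was 0.37, with 1 past 1.5-fold, CSRP2 at 0.62 (95.3 against 61.8 CPM). EGR1 had 0.51, SAT1 0.49 and NR4A1 0.43, whereas CRISPLD1 had -0.36.

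Of the 15 leading lower genes 14 were tested in VCaP parental, where 13 lay below the median of all genes and 0 were past 1.5-fold. Their median ratio was -0.25. H4C3 had -0.50, HMGB2 -0.49 and TOP2A -0.40. The summed S and G2M phase genes were at 12348 CPM in CCN3-high and 15719 CPM in CCN3-low cells of VCaP parental. The immediate early median was 0.08, that of the ID and BMP genes -0.22 and that of cytosolic ribosomal proteins -0.01. The difference between the libraries in these medians was not tested. FOLH1 and DDC, by contrast, had ratios of 0.56 and 0.50, close to those in VCaP–ENZ48.

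**Figure D5:**
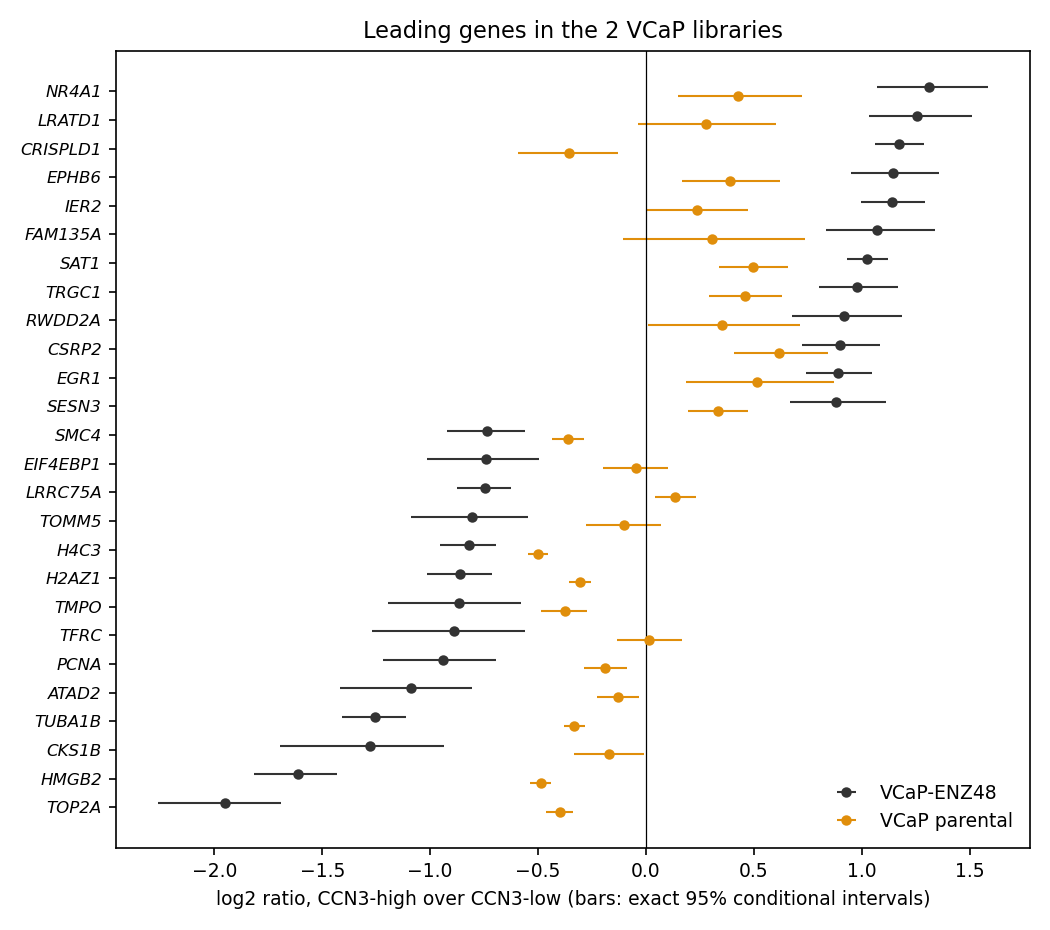
Log2 ratio of CCN3-high over CCN3-low cells (horizontal axis, exact 95% conditional intervals) for the 26 leading genes of at least 20 CPM in both libraries, in VCaP–ENZ48 (black) and VCaP parental (orange). Higher genes other than CRISPLD1 lie right of 0 in both libraries, by less in VCaP parental. The splits are unlike, since the median CCN3-high cell held 12 CCN3 UMIs in VCaP–ENZ48 and 1 in VCaP parental.

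Past 1.5-fold in both VCaP libraries were 8 of the 4773 genes tested in both, and all 8 pointed the same way. VCaP parental had 29 genes called higher and 4 lower, and VCaP–ENZ48 had 3.8% called higher and 2.07% lower. Whether 8 shared calls exceed the number these shares would give was not tested. The 8 genes were picked out after their values were seen. THBS1, a matricellular inhibitor of angiogenesis, had ratios of 0.69 in VCaP–ENZ48 and 1.13 in VCaP parental. LGALS8, a galectin, had 0.75 and 0.79, SERPINI1, a serpin, 0.66 and 0.88, and ADM, the peptide adrenomedullin, 0.62 and 0.83. The others on the higher side were CSRP2, H2AC6 and ITPR1, and TPX2, a spindle protein, was lower in both at -1.68 and -0.59.

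Set beside VCaP parental as a whole, some genes differed far more between the libraries than between the cells of VCaP–ENZ48. PLA2G2A, a secreted phospholipase, was at 694.8 CPM in CCN3-high and 546.4 CPM in CCN3-low cells, and at 30.8 CPM over VCaP parental. RGS4, a regulator of G protein signaling, was at 52.2, 53.2 and 3.79 CPM in this order. FBLN2, a matrix protein, was at 269.1, 175.1 and 19.7 CPM. These examples were chosen with earlier results of these data known, RGS4 from a list of genes that had risen with ENZ in them. Their excess over VCaP parental is therefore no separate finding. With 1 library each, the effect of ENZ cannot be told apart from other differences between the cultures.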

How the data were processed

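The authors prepared the libraries by Drop-seq and counted reads with Drop-seq tools 2.3.0, STAR 2.7.3a and Picard 2.18.22 on GRCh38 with Gencode 33, expecting 1000 cells per sample. They deposited UMI counts that had been neither normalised nor, as far as stated, filtered for cells. Kept VCaP–ENZ48 cells held 13941851 UMIs, 4016 to 117469 per cell. Of these, 2374848 lay in CCN3-high and 5448416 in CCN3-low cells. Of the kept barcodes 85.3% ended in N. Doublets were not identified, and 54 kept barcodes exceeded 3 times the median depth.

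Counts were summed per group and scaled to CPM, and ratios used a pseudocount of 1. A gene was tested at 20 CPM or more over all kept cells and called past 1.5-fold. Named genes were the 15 largest ratios each way at 50 CPM or more, the most abundant members of the lists, and the CCN family with its receptors. Any gene outside this rule serves as an example of a list or was picked out after its values were seen. The 43 gene lists held 1279 distinct symbols, of which 1197 were found. The cells, genes and lists were chosen with earlier results of these data known, and 6 lists were added after their values were seen. For a gene at 0, up to 3 counts cannot be told from none. Thinning drew 4000 UMIs per cell without replacement, and no cell was left out.

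Alternatives covered the cell filter, depth, barcodes, ranking, cell cycle, scaling (TMM of edgeR 4.0.16, median of ratios of DESeq2 1.42.0), pseudocount, minimum CPM and group size. Steps were tested on simulated data. Computations used Python 3.11.15, numpy 2.4.6, pandas 2.3.3, scipy 1.17.1, matplotlib 3.10.9 and R 4.3.3.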

Additional observations from a re-analysis of the deposited data

How the results depend on the processing

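With 1 library per group, none of the ratios has a replicate check, and low genes are limited by counting: a count of 0 allows 1.26 CPM in CCN3-high and 0.551 CPM in CCN3-low cells. No paired analysis was possible because a single library stood for every group, without a test. Leaving out a replicate was not possible for the same reason. The counts of genes past 1.5-fold, 207 higher and 113 lower, depended on the number of UMIs and on the border. They were 564 and 502 in barcodes ending in a base (24 against 48 cells), 467 and 322 after thinning to 4000 UMIs, 385 and 279 after thinning and ranking anew, and 502 and 240 in cells of 8000 to 20000 UMIs, an alternative added after the data were seen. They were 400 and 198 with the top 10% of cells, 439 and 256 at a minimum of 10 CPM, 72 and 30 at a minimum of 50 CPM, and 20 and 26 past 2-fold. TMM gave 104 and 212, median-of-ratios scaling lowered genes at a count of 173, and the cells at or below the median in cell cycle genes gave 75 lower. The other counts stayed within 1.5 times of these. In barcodes ending in a base LRRC75A was at 0.079. In the cells at or below the median in cell cycle genes TOP2A was at 0.38, HMGB2 at 0.56, CKS1B at 0.15, ATAD2 at 0.14 and H4C3 at 0.25, and the medians of G2M phase, Persist and metallothioneins at 0.092, 0.063 and 0.05. REG4 was at -1.09 with the top 10% of cells and at -0.85 in cells of 8000 to 20000 UMIs. The causes were not tested, except that these cells were chosen on the cell cycle genes. The median of immediate early genes ranged from 0.60 to 0.91, and those of BMP and ID, extracellular matrix, luminal and gastrointestinal genes also kept their sign under the alternatives run. Among leading genes in VCaP parental, 9 to 11 of 12 higher and 10 to 13 of 14 lower ones lay on the same side under the alternatives added for that library.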
